A study of Mus musculus with 6 samples.

Results

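Transcripts of 8 genes that regulate the antioxidant response were followed in mouse embryonic fibroblasts exposed to erastin. They are Nfe2l2, Nfe2l1, Keap1, Cul3, Bach1, Maff, Mafg and Mafk, taken by symbol from the 43346 genes of the deposited count table, and each of the 8 matched a single row. The cells were primary fibroblasts of the C57BL/6 strain at passage 9, which are cells grown out of embryos with a limited life span. The study set 3 libraries of cells treated for 24 h with 3 µM erastin against 3 libraries of cells given DMSO, the solvent. Erastin inhibits the cystine/glutamate antiporter and is used to induce ferroptosis, an iron-dependent death through lipid peroxidation. Both groups came from cells kept in medium with 10% fetal bovine serum, nonessential amino acids, antibiotics and 2-mercaptoethanol, a thiol, whose concentration the labels give in a unit that is in doubt. The series describes 3 repeats of the experiment; whether these came from separate embryo preparations is not stated, so the p-values measure the spread between these libraries.

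NRF2, the product of Nfe2l2, is a transcription factor of the cap'n'collar (CNC) family. In unstressed cells KEAP1 holds it and, as the adaptor of a CUL3 ubiquitin ligase, marks it for destruction; electrophiles and oxidants modify KEAP1 and let NRF2 accumulate. NRF2 and its relative NRF1, encoded by Nfe2l1, bind antioxidant response elements only as pairs with a small MAF protein, and BACH1 takes the same partners and sites as a repressor that heme inactivates. Much of this control acts on the proteins, which transcript counts do not show.

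The libraries were made from total RNA depleted of ribosomal RNA and read on an Ion Proton. Total counts per library ran from 13333911 to 20509970, and all 8 genes had at least 364 reads in every library. All 12 fibroblast markers were expressed, with summed levels of 39020 to 42910 CPM (counts relative to the TMM-adjusted size of each library) in DMSO and 29200 to 30390 CPM in erastin libraries. Of these 12 genes 9 were lower with erastin and 0 higher, at an adjusted p under 0.05 in edgeR's quasi-likelihood test. That test is used wherever no other is named. Over all genes tested, 21.5% were lower and 21.6% higher by the same measure. Summed macrophage markers stood at 23.0 to 45.2 CPM in DMSO and 28.4 to 59.8 CPM in erastin libraries, and 0 of the 7 tested passed. The endothelial genes Kdr and Tek were higher with erastin (edgeR adjusted p = 0.00172 and 0.00117), as was the muscle gene Des (edgeR adjusted p = 5.4e-05), while Pecam1, Cdh5, Myod1 and Myog had means under 1 CPM in both groups. The summed endothelial markers went from 5.16 to 7.71 CPM in DMSO to 14.1 to 17.6 CPM in erastin libraries, and the muscle markers, nearly all Des, from 35.7 to 45.6 CPM to 65.3 to 69.1 CPM. All 7 epithelial and all 7 erythroid markers were under 1 CPM in every library. Their part in the results below was not tested. In bulk RNA, fewer cells of a type and less RNA per cell cannot be told apart.

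Of the 8 regulators, 6 were higher with erastin and 0 lower: Nfe2l2, its 3 small MAF partners Maff, Mafg and Mafk, the ligase scaffold Cul3, and the repressor Bach1. In the same fit 43.1% of all 14000 genes tested passed at an adjusted p under 0.05, and 21.6% passed as higher. The median log2 fold change of the 8 was 0.71, against -0.0014 over all genes tested. In each of the 6 genes called, the 3 erastin libraries lay above the 3 DMSO libraries, which held for 26.7% of all genes tested, while 25.8% had the opposite order and 52.5% one or the other. At an adjusted p under 0.01, 5 of the 8 passed, against 30.8% of all genes. Only Maff and Mafk among the 8 passed with a log2 fold change of at least 1, against 4.99% of all genes. The transcripts of the inhibitor Keap1 and of Nfe2l1 did not pass. The members were picked with such results in view, so these counts describe the set and give no test of it.

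Nfe2l2 (ENSMUSG00000015839.6, chr2:75675513-75704641, minus strand, mm10) encodes NRF2. Its level was 105.7, 103.4 and 101.2 CPM in DMSO replicates 1, 2 and 3, and 203.9, 208.3 and 186.7 CPM in erastin replicates 1, 2 and 3. The groups were far apart, and erastin replicate 3 was the lowest of the treated libraries. The rise was 1.93-fold (log2 fold change 0.95, SE 0.08, 95% interval 0.785 to 1.11, edgeR adjusted p = 1.96e-07), and 7.29% of all tested genes had a larger log2 fold change.

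Nfe2l1 (ENSMUSG00000038615.13, chr11:96817414-96829968, minus strand) encodes NRF1, a CNC factor anchored in the endoplasmic reticulum that is released to raise proteasome genes when proteasome activity falls. Its level was 413, 413.7 and 459.2 CPM in DMSO and 429.3, 398.6 and 436.2 CPM in erastin libraries. The groups overlapped, with the highest value in DMSO replicate 3 and the lowest in erastin replicate 2. The log2 fold change was -0.02 (SE 0.07, 95% interval -0.18 to 0.13, edgeR adjusted p = 0.816), so a change beyond about 0.18 in either direction lies outside the interval. Nfe2l1 and Nfe2l2, the pair of CNC activators measured here, therefore gave values of -0.02 and 0.95 on the log2 scale.

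Keap1 (ENSMUSG00000003308.10, chr9:21229730-21239361, minus strand) encodes the cysteine-rich sensor that holds NRF2. It stood at 58.9, 66.4 and 65.4 CPM in DMSO and 66.0, 66.2 and 65.4 CPM in erastin libraries. The 3 erastin values lay within the range of the DMSO values, of which replicate 1 was the lowest. The log2 fold change was 0.05 (SE 0.09, 95% interval -0.14 to 0.24, edgeR adjusted p = 0.678). An antisense gene, Gm16754, overlaps 510 bases of its exons but had only 8 reads over the 6 libraries, against 6600 for Keap1.

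Cul3 (ENSMUSG00000004364.10, chr1:80264923-80340480, minus strand) encodes the cullin on which KEAP1 and many other adaptors build ubiquitin ligases. It rose from 71.1, 73.7 and 77.6 CPM in DMSO to 110, 100.5 and 114.4 CPM in erastin libraries, with a gap between the groups wider than the spread within either. The change was 1.46-fold (log2 fold change 0.55, SE 0.09, 95% interval 0.36 to 0.73, edgeR adjusted p = 0.000112). Its longest transcript has a GC content of 38.5%, the lowest of the 8 genes. With an offset for each library fitted to GC content and gene length, the log2 fold change was 0.28 (edgeR adjusted p = 0.0131).

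Bach1 (ENSMUSG00000025612.5, chr16:87698945-87733346, plus strand) encodes the heme-binding repressor that competes with NRF2. Its level was 76.5, 88.6 and 75.6 CPM in DMSO and 98.5, 95.5 and 98.6 CPM in erastin libraries, so the groups did not overlap but DMSO replicate 2 came close to the treated libraries. It was the smallest of the 6 rises, at 1.21-fold (log2 fold change 0.28, SE 0.09, 95% interval 0.09 to 0.47, edgeR adjusted p = 0.0176), and 31.7% of all tested genes had a larger log2 fold change. The call was lost with the GC and length offset (log2 fold change 0.16, edgeR adjusted p = 0.139). It was also lost without DMSO replicate 1, DMSO replicate 3 or erastin replicate 1 (edgeR adjusted p = 0.0654, 0.0559 and 0.0645). There the log2 fold changes were 0.246, 0.237 and 0.273, and 37.3%, 40.2% and 33.6% of all genes passed, against 43.1% with all libraries.

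The small MAF proteins MAFF, MAFG and MAFK carry a DNA-binding leucine zipper and no activation domain, so they repress as pairs among themselves and support transcription when paired with a CNC factor. All 3 genes rose. Mafg (ENSMUSG00000051510.9, chr11:120625117-120633600, minus strand) was the steadiest, at 59.9, 57.3 and 58.5 CPM in DMSO and 110.3, 102.9 and 109.8 CPM in erastin libraries (1.84-fold, log2 fold change 0.88, SE 0.08, 95% interval 0.70 to 1.05, edgeR adjusted p = 7.8e-07). Neither group spread by more than 8 CPM, while the gap between them was over 40 CPM. Mafg shares 124 exon bases on the same strand with Sirt7, which had 1671 reads against 8785 for Mafg over the 6 libraries.

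Maff (ENSMUSG00000042622.9, chr15:79346621-79359076, plus strand) had the largest log2 fold change of the 8 genes. It went from 32.3, 27.3 and 28.3 CPM in DMSO to 85.5, 79.7 and 55.4 CPM in erastin libraries. Erastin replicate 3 was well below the other treated libraries but still above every DMSO library. The change was 2.51-fold (log2 fold change 1.33, SE 0.14, 95% interval 1.03 to 1.63, edgeR adjusted p = 3.16e-06), and it ran from 1.2 to 1.5 on the log2 scale when 1 library was left out.

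Mafk (ENSMUSG00000018143.6, chr5:139791513-139802653, plus strand) stood at 35.2, 29.3 and 49.7 CPM in DMSO and 88.1, 79.98 and 80.4 CPM in erastin libraries. Here the spread was in the controls, where DMSO replicate 3 was the highest. The change was 2.18-fold (log2 fold change 1.13, SE 0.15, 95% interval 0.82 to 1.44, edgeR adjusted p = 2.01e-05), and the log2 fold change ran from 0.97 to 1.36 when 1 library was left out. Tmem184a overlaps 169 bases of its exons on the opposite strand and had 78 reads over the 6 libraries, against 6413 for Mafk.

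**Figure D1:**
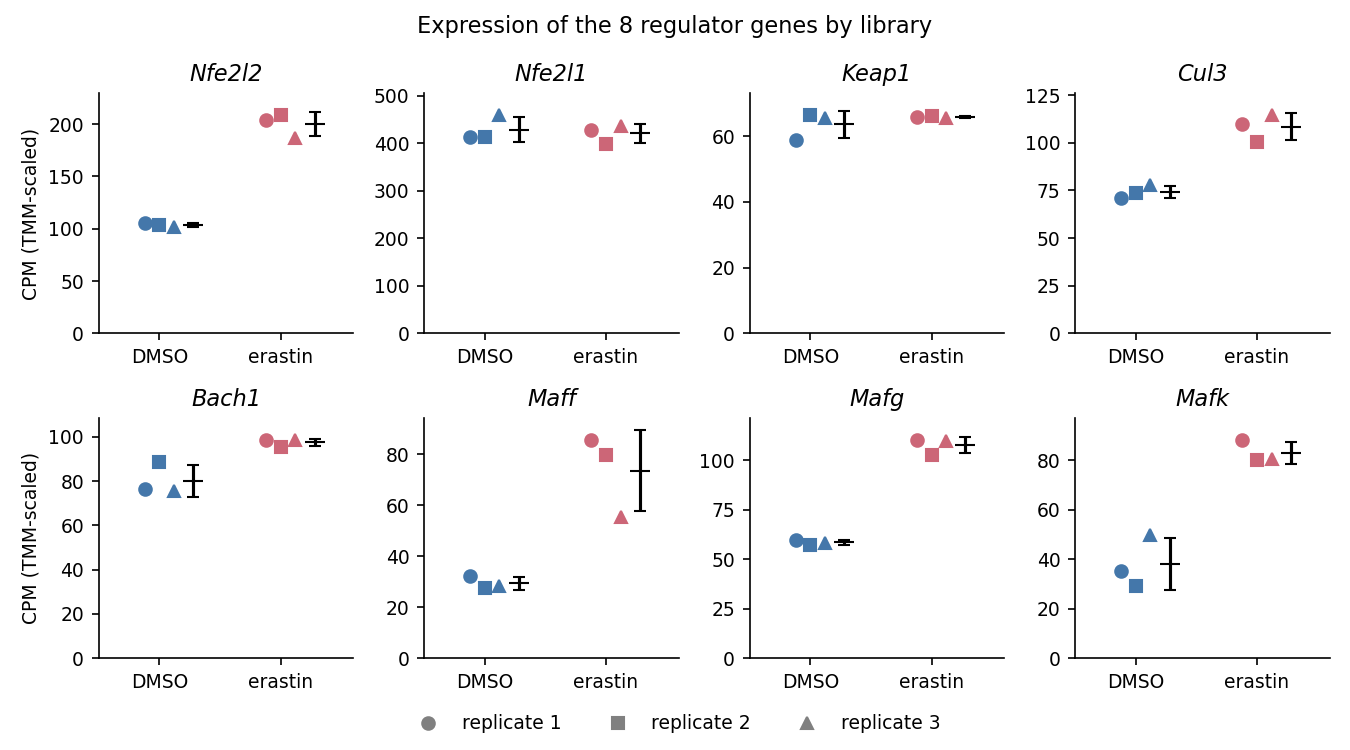
Each panel plots the CPM of 1 regulator gene (linear axis from 0) in the 3 DMSO and 3 erastin libraries, with marker shapes for the replicates and the black bar giving the mean and SD (n = 3). Nfe2l2, Cul3, Bach1, Maff, Mafg and Mafk have no overlap between groups, while the Nfe2l1 and Keap1 values overlap.

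**Figure D2:**
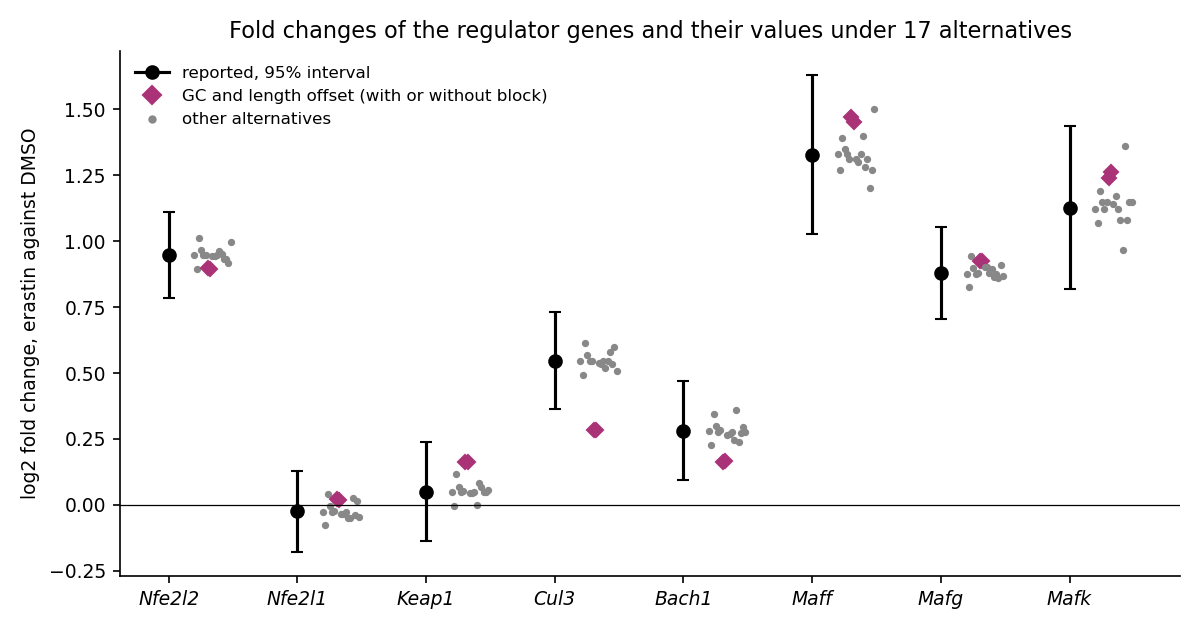
Black points are the log2 fold changes of erastin against DMSO with 95% intervals, and the small points beside them are the values under the 17 alternatives run for each gene. The GC and length offset, drawn as diamonds, moved Cul3 from 0.55 to 0.28 and Bach1 from 0.28 to 0.16, and the small MAF genes and Nfe2l2 stayed above 0.8 under all 17.

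The antioxidant response element was looked for in the promoters of these genes, because NRF2, NRF1, BACH1 and the small MAF proteins act through it. The letters searched were TGACNNNGC, its core, on both strands of the RefSeq promoter windows (GRCm38.p6), which run from 250 bases before to 50 bases after a gene's start; this core overlaps the AP-1 site where its middle letters allow. All 8 genes matched, with 14 windows in all, 5 of them for Nfe2l1 and 3 for Maff. A match stood in 4 windows, 1 each of Nfe2l2, Maff, Mafg and Mafk, the 4 genes with the largest log2 fold changes, and in no window of Nfe2l1, Keap1, Bach1 or Cul3. That is 28.6% of the members' windows (exact Clopper-Pearson 95% interval 8.39% to 58.1%), against 12.4% of all 32851 windows. The interval takes the windows as independent, but windows of 1 gene can overlap, as some of Nfe2l1 do. These shares therefore describe the windows and give no test. With an A required after the core, 0 of the 14 windows and 3.04% of all windows had a match. A match describes the letters in a window and not binding, and its absence says only that these letters are not there.

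The stretches before the gene for Nfe2l2, Mafg and Maff are shown because they belong to genes that moved most and hold the match outside the annotated gene. They are read along the gene from 5′ to 3′ and stop at the RefSeq start or, for Mafg, where the GENCODE gene begins. Capitals mark the match, which for Mafg lies on the other strand and so reads as the reverse complement. Nfe2l2 is at chr2:75704664-75704913 on the minus strand (250 bases), Mafg at chr11:120633601-120633797 on the minus strand (197 bases) and Maff at chr15:79346371-79346620 on the plus strand (250 bases).
Nfe2l2: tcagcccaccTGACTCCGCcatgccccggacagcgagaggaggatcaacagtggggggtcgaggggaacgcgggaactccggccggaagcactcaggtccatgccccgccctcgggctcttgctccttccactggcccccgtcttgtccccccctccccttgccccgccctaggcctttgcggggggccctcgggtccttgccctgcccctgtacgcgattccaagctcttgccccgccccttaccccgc
Mafg: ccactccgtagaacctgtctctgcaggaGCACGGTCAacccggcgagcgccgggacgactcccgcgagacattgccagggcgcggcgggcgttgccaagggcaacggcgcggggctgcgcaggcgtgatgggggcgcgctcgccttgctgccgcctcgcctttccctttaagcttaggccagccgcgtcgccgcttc
Maff: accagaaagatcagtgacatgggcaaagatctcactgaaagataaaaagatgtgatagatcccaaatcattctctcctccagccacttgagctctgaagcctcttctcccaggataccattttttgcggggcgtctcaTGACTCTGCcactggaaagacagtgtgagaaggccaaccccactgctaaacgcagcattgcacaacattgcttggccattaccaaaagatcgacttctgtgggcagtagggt

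For comparison, the same core is shown with 10 bases on either side, turned so that the core reads forward, for the 4 regulators and for each target gene named below that had a match. Capitals mark the match. The positions are those of the match's first base along the gene, counted from the RefSeq start. Among the targets Gclm, Txnrd1, Srxn1 and Abcc4 rose and Blvra fell. Of the other targets named below, Slc7a11, Osgin1, Sqstm1 and Nqo1, which rose, and Tkt and Idh1, which fell, had no match. Gsta1 and Gpx2, also named below but too low to test, had no match either. Hmox1, Gclc and Fech had no promoter entry. Matches in targets not named below are left out, and those genes went in both directions.
Nfe2l2, chr2:75704885-75704913, minus strand, position -240: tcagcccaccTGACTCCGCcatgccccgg
Mafg, chr11:120633751-120633779, plus strand, position -222: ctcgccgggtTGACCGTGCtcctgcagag
Maff, chr15:79346499-79346527, plus strand, position -112: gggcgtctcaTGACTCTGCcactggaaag
Mafk, chr5:139791513-139791541, minus strand, position -13: tccccagtacTGACACCGCttccgggatc
Gclm, chr3:122245413-122245441, minus strand, position -134: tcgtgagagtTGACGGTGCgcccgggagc
Txnrd1, chr10:82859104-82859132, minus strand, position -92: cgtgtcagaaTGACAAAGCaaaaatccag
Srxn1, chr2:152105542-152105570, minus strand, position 29: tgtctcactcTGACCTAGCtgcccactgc
Abcc4, chr14:118706226-118706254, plus strand, position -25: cggcccgcccTGACCCCGCctctcggggc
Abcc4, chr14:118676936-118676964, minus strand, position -23: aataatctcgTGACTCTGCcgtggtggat
Blvra, chr2:127070598-127070626, minus strand, position -49: ggcggagcctTGACCGAGCaattcccgtg

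Since KEAP1 holds NRF2 back and BACH1 competes with it for partners, ratios of read counts were taken within each library, where the scaling between libraries drops out. The log2 ratio of Nfe2l2 to Keap1 was 0.84, 0.64 and 0.63 in DMSO and 1.63, 1.65 and 1.51 in erastin libraries, a 1.86-fold shift. Nfe2l2 to Bach1 went from 0.47, 0.22 and 0.42 to 1.05, 1.12 and 0.92, a 1.58-fold shift. Both ratios were higher in all 3 erastin libraries than in any DMSO library. Such shifts follow from the fold changes given above for each gene. How many other genes would separate in a ratio with Nfe2l2 was not counted. Nfe2l2 to Nfe2l1 and Nfe2l2 to Cul3 shifted in the same way, by 0.97 and 0.40 on the log2 scale. For each of these 4 ratios the exact two-sided permutation p was 0.1, the smallest that 3 against 3 can give, and 0.2 after Benjamini-Hochberg adjustment over the 8 ratios compared, so the design cannot reach 0.05.

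The ratio of Nfe2l2 to the summed small MAF counts, in contrast to its ratio to Keap1, overlapped between groups. It was -0.27, -0.14 and -0.43 in DMSO and -0.48, -0.33 and -0.40 in erastin libraries on the log2 scale (difference -0.12, exact permutation p = 0.3, adjusted p = 0.4), and the difference was -0.05 without DMSO replicate 2 and -0.20 without DMSO replicate 3. Within the small MAF genes the ratios also overlapped between groups. Mafg to Mafk differed by -0.28 (exact permutation p = 0.4), Mafg to Maff by -0.43 (exact permutation p = 0.2) and Maff to Mafk by 0.15 (exact permutation p = 0.5), with adjusted p of 0.457, 0.32 and 0.5. Erastin replicate 3 had a Mafg to Maff log2 ratio of 0.99, inside the DMSO range of 0.89 to 1.07, while the other erastin libraries were at 0.37 each. Without DMSO replicate 3 the Maff to Mafk difference was -0.08, and leaving out each of the other libraries gave 0.06 to 0.32. The Mafg to Mafk difference was -0.12 without DMSO replicate 2 and -0.49 without DMSO replicate 3.

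**Figure D3:**
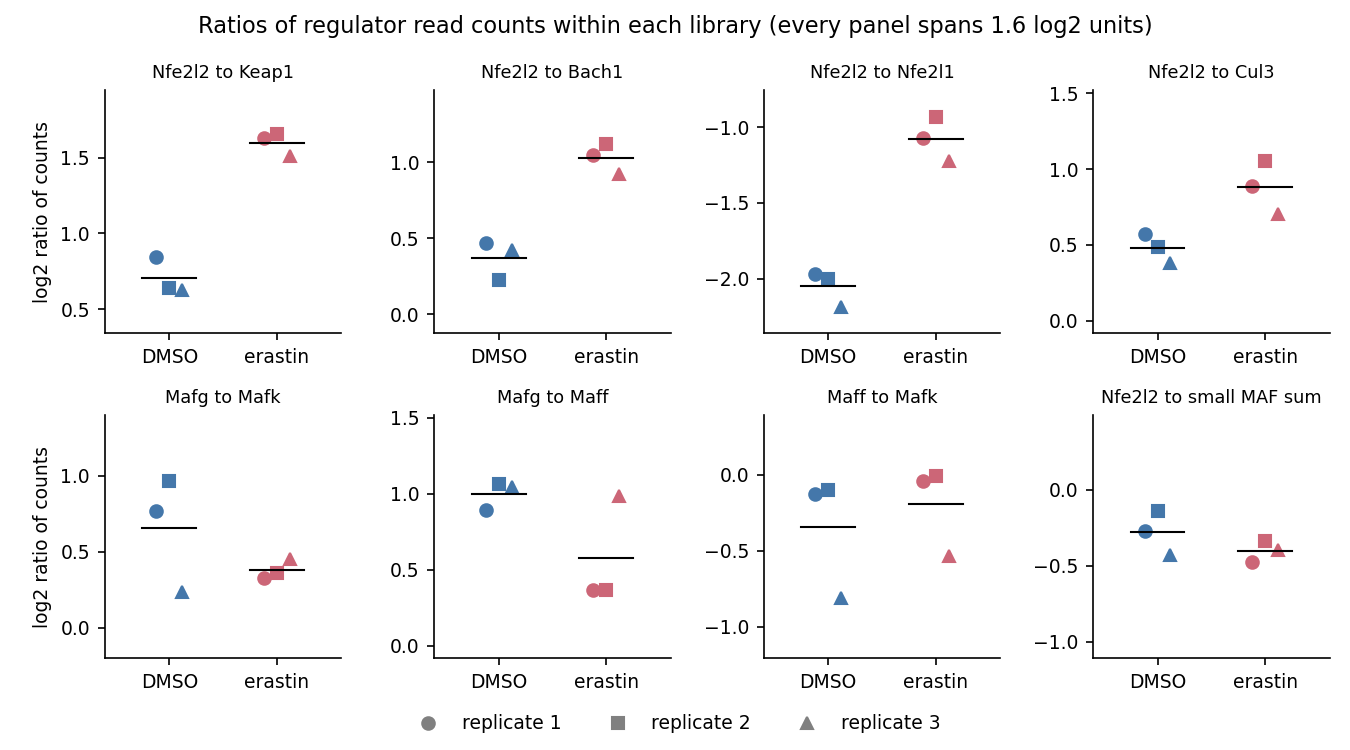
Each panel plots the log2 ratio of the read counts of a pair of genes in each library (every vertical axis spans 1.6 log2 units), with marker shapes for replicates and lines for group means. The upper row, Nfe2l2 against Keap1, Bach1, Nfe2l1 and Cul3, has no overlap between groups, and the lower row, with the small MAF genes, overlaps in all 4 panels.

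Levels of different genes were compared per length, as RPKM (CPM per kb of the gene's summed exons). Nfe2l1 was the highest of the 8 in both groups, at 78.8 ± 4.86 RPKM in DMSO and 77.5 ± 3.68 RPKM in erastin libraries (SD, n = 3 each). Nfe2l2 was next, at 27.3 ± 0.595 and 52.6 ± 3.00 RPKM. Neither gene's values overlapped with those of any other member in either group.

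The other 6 genes lay close together in DMSO libraries. The order by mean was Cul3 (15.2 ± 0.672 RPKM), Keap1 (13.5 ± 0.859), Bach1 (13.0 ± 1.18), Maff (11.3 ± 1.01), Mafg (10.4 ± 0.232) and Mafk (9.76 ± 2.69; SD, n = 3 each). Cul3 lay above Keap1 in every library, and from Keap1 down each gene overlapped with the next. In erastin libraries the order was Maff (28.3 ± 6.16 RPKM), Cul3 (22.2 ± 1.46), Mafk (21.2 ± 1.17), Mafg (19.2 ± 0.739), Bach1 (15.8 ± 0.278) and Keap1 (14.0 ± 0.0851). Maff, Cul3 and Mafk overlapped there, while Mafg, Bach1 and Keap1 each lay below the gene before it in all libraries. Keap1 thus stood in place 4 of 8 in DMSO and in place 8 in erastin libraries. With the length of the longest transcript in place of all exons, Keap1 stood in places 3 and 7, Bach1 in places 6 and 8, and the first and second places did not move.

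The small MAF genes together came to 32.1, 28.3 and 34.1 RPKM in DMSO and 75.2, 69.6 and 61.5 RPKM in erastin libraries. The share of each gene in that sum overlapped between groups. Maff held 36.0% ± 3.51 in DMSO and 40.9% ± 5.37 in erastin libraries, Mafg 33.3% ± 2.79 and 28.1% ± 3.20, and Mafk 30.7% ± 5.86 and 31.0% ± 2.18 (SD, n = 3 each).

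**Figure D4:**
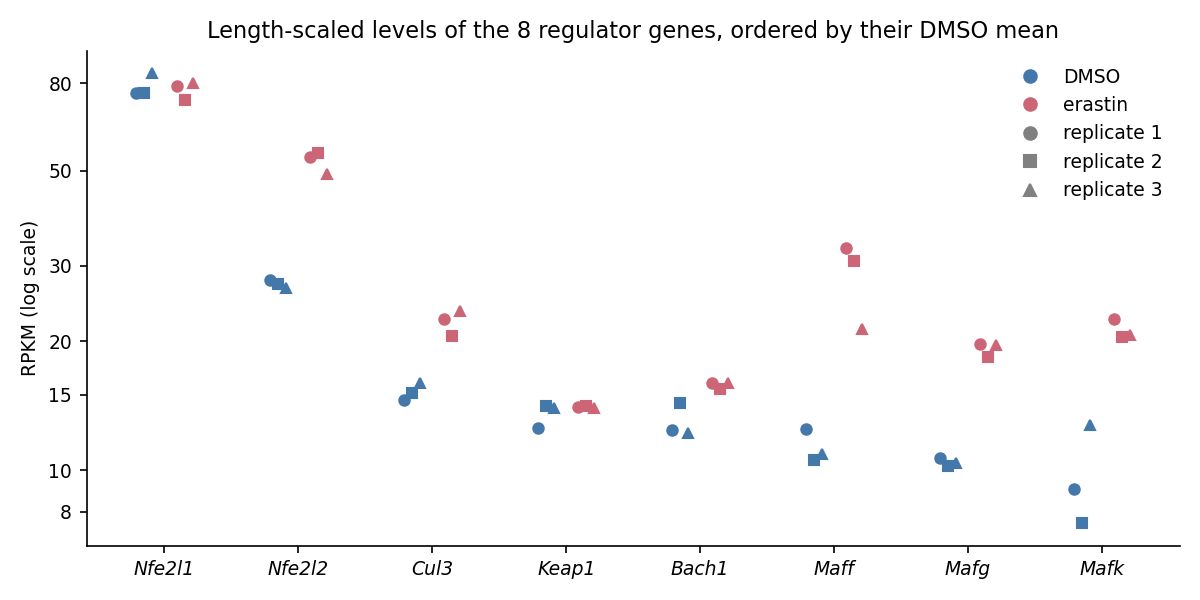
RPKM of the 8 regulator genes in each library (logarithmic axis), ordered by the DMSO mean, with colours for the groups and marker shapes for replicates. Nfe2l1 is highest in both groups near 78, Nfe2l2 moves from about 27.3 to 52.6, and the 3 small MAF genes move from the bottom of the order to values above Keap1 and Bach1.

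Relatives of these factors were mostly faint. Of 6 other CNC, BACH and large MAF genes, 4 were too low to test: Nfe2, the CNC factor of red cells and platelets, had at most 6 reads in any library, Nfe2l3 at most 12, Mafa at most 10 and Nrl, the photoreceptor factor, at most 2. Of the 2 tested, Maf fell from 23.9, 27.1 and 28.2 CPM in DMSO to 13.9, 20.4 and 20.5 CPM in erastin libraries (a log2 change of -0.53 with an SE of 0.16 and an edgeR adjusted p of 0.0149), a call lost without DMSO replicate 2 or erastin replicate 1. For Bach2, the lymphoid relative of Bach1, the log2 change was -0.18, which did not pass (edgeR adjusted p = 0.551). The median of the pair was -0.36, and -0.20 without erastin replicate 1.

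A list of 22 genes whose products act on NRF2, NRF1, KEAP1 or BACH1 went in both directions. Of the 22, 5 rose and 4 fell, 22.7% and 18.2%, against 21.6% and 21.5% of all genes tested, and the median log2 fold change was -0.11 against -0.0014. That median was -0.06 without DMSO replicate 2 or DMSO replicate 3, -0.04 by total count, and -0.16 with upper-quartile factors or after thinning. The median over all genes tested was 0.0646 by total count, -0.0552 with upper-quartile factors and -0.00297 after thinning. Sqstm1, whose product p62 takes KEAP1 to autophagy, rose from 532.6, 564.8 and 576.7 CPM to 2393, 2526 and 2240 CPM (edgeR adjusted p = 9.24e-11 for a log2 fold change of 2.10 with an SE of 0.07). Gsk3b, a kinase that primes NRF2 for a ligase other than KEAP1's, rose by 0.53 on the log2 scale, and the coactivator gene Crebbp by 0.40 (edgeR adjusted p = 7.95e-05 and 0.0013). The others that rose were Ep300 and Rbx1, the ring subunit of cullin ligases, named after their values were seen, at 0.37 and 0.25 (edgeR adjusted p = 0.00816 and 0.0406). Without erastin replicate 1, 3 genes of this list rose. In that fit 2402 of all 14278 genes tested rose, against 3024 of 14000 with all libraries.

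Among the genes that fell in that list, Rxra, a nuclear receptor that can bind NRF2, went from 84.6, 80.9 and 75.9 CPM to 39.9, 48.6 and 50.5 CPM (edgeR adjusted p = 1.83e-05 for a log2 fold change of -0.80 with an SE of 0.10). Cand1, which exchanges the adaptors of cullin ligases, fell by 0.40 on the log2 scale (edgeR adjusted p = 0.000478). Fbxl17 and Fbxo22, which encode F-box proteins that target BACH1, fell by 0.84 and 0.33 (edgeR adjusted p = 0.000242 and 0.0438); Fbxo22 is named after its values were seen. The NRF1-processing genes Ddi2 and Ngly1, also named after their values were seen, had log2 fold changes of -0.04 and -0.43 and did not pass (edgeR adjusted p = 0.823 and 0.098).

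The list of antioxidant and iron genes commonly described as targets of these factors held 43 genes, of which 38 were tested. In it 21 genes rose and 7 fell, 55.3% and 18.4% against 21.6% and 21.5% of all genes tested, with a median log2 fold change of 0.47. Hmox1, the heme oxygenase gene that BACH1 represses, rose most, from 177.5, 190.8 and 188.8 CPM in DMSO to 2816, 3190 and 2103 CPM in erastin libraries (edgeR adjusted p = 8.29e-11 for a log2 fold change of 3.86 with an SE of 0.11). Slc7a11, a subunit gene of the antiporter that erastin blocks, followed, from 16.1, 11.5 and 15.6 CPM to 213.1, 219.7 and 141.4 CPM (edgeR adjusted p = 1.01e-09 for a log2 fold change of 3.75). Both genes were lowest among treated libraries in erastin replicate 3.

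The next rises of the target list were those of Osgin1 (log2 fold change 2.19), Sqstm1, which is also in the preceding list, Gclm (1.96), Txnrd1 (1.91), Abcc4 (1.68) and Srxn1 (1.64), with edgeR adjusted p from 9.24e-11 to 1.02e-05. Gclm encodes the modifier subunit of the enzyme that starts glutathione synthesis, Txnrd1 thioredoxin reductase, Srxn1 sulfiredoxin and Abcc4 an export pump. Gclc, the catalytic partner of Gclm, rose by 1.63 and Nqo1, a quinone reductase, by 0.78 (edgeR adjusted p = 7.73e-09 and 1.22e-05). Tkt and Idh1, enzymes of the pentose phosphate path and of NADPH supply, fell by 1.02 and 0.95, and Fech and Blvra, of heme synthesis and breakdown, by 0.53 and 0.42 (edgeR adjusted p = 1.68e-07, 1.37e-06, 0.000441 and 0.043). Without erastin replicate 1, 4 genes of this list fell. In that fit 33.6% of all genes passed in either direction, against 43.1% with all libraries. The core letters TGACNNNGC were in 12 of 43 windows of the 34 target genes with an entry (27.9%, exact Clopper-Pearson 95% interval 15.3% to 43.7%), against 12.4% of all windows. With an A required after the core it was 4 of 43 (9.3%, exact interval 2.59% to 22.1%), against 3.04% of all windows. Windows of 1 gene are not independent and the list was chosen with results known, so these shares give no test either.

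Proteasome subunit genes, described as targets of NRF1, were listed as 31 genes and all were tested. Of these 12 rose and 1, Psmb6, fell (log2 fold change -0.22, edgeR adjusted p = 0.0491, named after its values were seen), 38.7% and 3.23% against 21.6% and 21.5% of all genes tested, with a median log2 fold change of 0.20. No gene of the list was lower by total count, without a count filter, with the replicate block, or without DMSO replicate 1, DMSO replicate 2 or erastin replicate 1. The smallest p-values were those of 19S regulatory particle genes. Psmd11 rose from 95.8, 90.2 and 86.6 CPM to 169.4, 190.1 and 173.2 CPM (edgeR adjusted p = 2.79e-07 for a log2 fold change of 0.97 with an SE of 0.08), and Psmc6 and Psmd8 rose by 0.94 and 0.71 (edgeR adjusted p = 7.49e-07 and 1.32e-06). By particle, a split made after the values were seen, 4 of 6 ATPase and 6 of 11 other genes of the 19S particle rose and 0 fell, while 2 of 14 genes of the 20S core rose, a share below that over all genes, and 1 fell. The difference between the particles was not tested. Scaling by total count only gave 19 rises among the 31. With that scaling 3456 of all 14000 genes tested rose, against 3024 in the main fit. The transcript of Nfe2l1 itself did not pass, as given above.

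**Figure D5:**
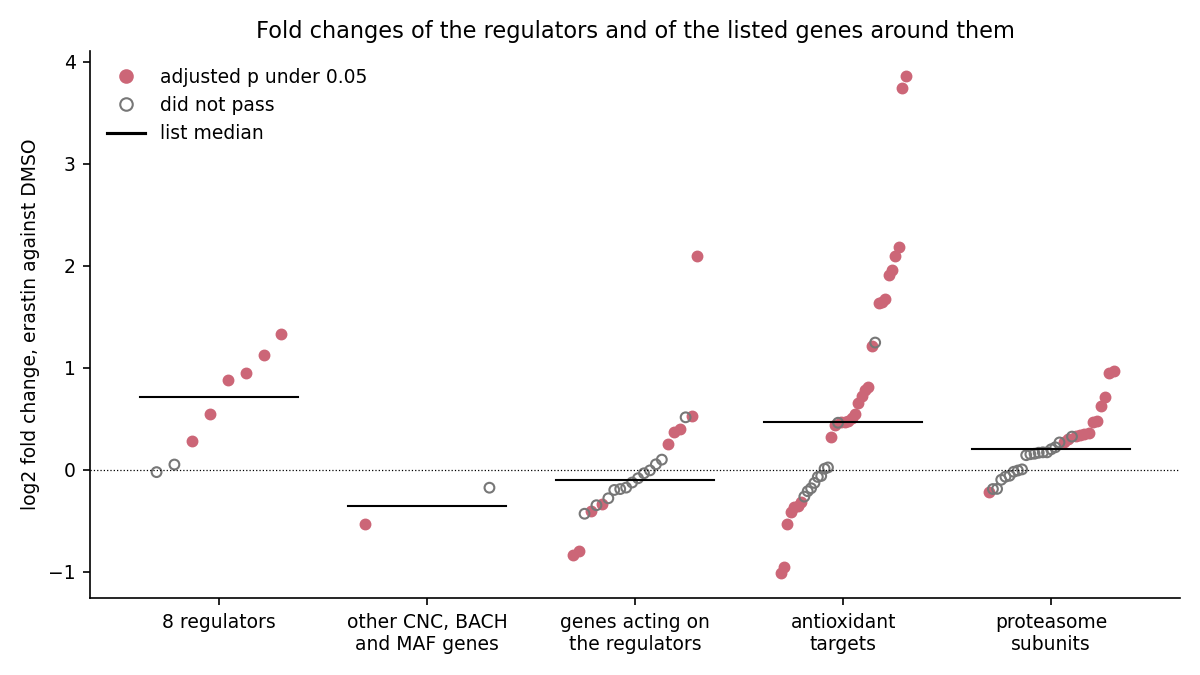
Log2 fold changes of erastin against DMSO for the tested genes of each list, filled where the edgeR adjusted p was under 0.05, with a line at the list's median. The medians are 0.71 for the 8 regulators, -0.36, -0.11, 0.47 and 0.20 for the other lists from left to right, and the target list holds values from -1.02 to 3.86.

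Genes with a profile most like that of 3 members were found by the root mean square difference between log2 CPM profiles over the 6 libraries, each centred on its mean, among the 11260 other tested genes whose counts averaged 50 or more. Nearest to Nfe2l2 were Serpinb9b, Rnmt and Smg1, with differences of 0.031, 0.037 and 0.039 on the log2 scale and log2 fold changes of 0.94, 0.89 and 0.96. For Mafg they were Hsph1, Nbr1 and Ghitm (0.032, 0.033 and 0.040), and for Bach1 they were Uckl1, Ssrp1 and Htra1 (0.023, 0.028 and 0.035). Among the 8 regulators the closest pair was Nfe2l1 and Keap1 (0.081), followed by Nfe2l2 and Mafg (0.082).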

How the data were processed

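The authors deposited raw read counts, whole numbers for each gene and library, and these 6 columns were used as given. The submitters' processing notes name HTSeq 0.9.1, SAMtools and the build mm10; the aligner, the annotation and the strand setting are not given in the sources used here. Identifiers were matched without their version to GENCODE M21 (GRCm38, the assembly of mm10), and 98.0% of 43346 had a symbol. The number of columns of per-sample values left unused was 0.

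Counts were fitted with edgeR 4.0.16 in R 4.3.3: filterByExpr (minimum count 10, total 15, 3 libraries), TMM factors, glmQLFit and glmQLFTest with treatment as the only term, two-sided, and Benjamini-Hochberg adjustment over 14000 genes. CPM are counts scaled to TMM-adjusted library sizes, and RPKM are CPM per kb of summed exon length. Ratios were taken after adding 0.5 to each count and tested by exact permutation. Total counts per library were 13333911 to 20509970. The floor of 3 counts was worth 0.146 to 0.225 CPM and covers counting error only, since libraries were amplified by PCR.

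The members and lists were chosen with earlier results of these data known. Named genes are the members, 6 other CNC, BACH and MAF genes (a further gene of that list is not reported here), set numbers of list genes by p or by size of change, 8 target genes by name, and the 3 genes of nearest profile for each of 3 members; others are said to be chosen after their values were seen. Alternatives were RLE, upper-quartile and total-count scaling, other count filters, a replicate block, an offset per library for GC content and length (mgcv 1.9.3), thinning to the smallest library, DESeq2 1.42.0, and leaving out each library. The fits were also run on simulated counts in which a far smaller share of genes changed than was called here. Those runs do not measure the error rate in these data.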

Additional observations from a re-analysis of the deposited data

How the results depend on the processing

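The 4 largest rises, Nfe2l2, Mafg, Maff and Mafk, and that of Cul3 kept their direction and an adjusted p under 0.05 in all 17 alternatives run for each, with a highest edgeR adjusted p of 0.0131 (Cul3, GC and length offset). Bach1 passed in 12 of 17 and was 0.163 with the offset and 0.167 with offset and replicate block; leaving out 1 library gave 0.237 to 0.361. Nfe2l1 and Keap1 passed in 0 of 17 (16 edgeR fits and DESeq2), and their signs turned. Nfe2l1 was 0.0421 by total count, 0.0219 with the offset, 0.0199 with offset and replicate block, and -0.0507 to 0.026 when 1 library was left out. Keap1 was -0.0035 with upper-quartile factors and -0.00165 to 0.0844 when 1 library was left out. Between 5 and 6 members rose and 0 fell in every alternative. The difference in the Maff to Mafk ratio ran from -0.0818 to 0.322 when 1 library was left out.

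The control list's median was -0.159 with upper-quartile factors, -0.0414 by total count and -0.161 after thinning, and 3 to 6 of its genes rose when 1 library was left out. The target list's median was 0.534 by total count and 0.445 to 0.539 when 1 library was left out, with 4 to 6 genes lower. The proteasome median was 0.146 with upper-quartile factors and 0.264 by total count, where 19 genes rose, as did 3456 of all 14000 tested. Its genes lower numbered 3 with upper-quartile factors, 0 by total count, without a filter, with the replicate block and after thinning with the replicate block, 2 with the offset (with or without the replicate block) and with DESeq2, and 0 to 2 when 1 library was left out. In the family list 0 to 1 gene was lower then. Over all genes tested, the median log2 fold change was -0.0014 in the main fit and -0.0552 with upper-quartile factors. It was 0.0646 by total count and -0.00297 after thinning. When 1 library was left out, 33.6% to 40.2% of all genes passed, against 43.1% in the main fit. The cause of the moves in the lists was not tested. Equally numbered libraries did not deviate together (correlations of 0.0401, 0.00379 and -0.0055), and 3 of 6 libraries correlated best with their own number. The replicate block called 5882 genes against 6028, with 5751 shared, and changed no call among the 8 members. At this depth Nfe2, Nfe2l3, Mafa and Nrl were too low to test.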

Other observations

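Erastin replicate 3 was the lowest treated library in 16 of the 21 target genes that rose, in Nfe2l2 and in Maff. In the other rising regulators, Mafg, Mafk, Cul3 and Bach1, the lowest treated library was erastin replicate 2. This was noticed after the values were seen, replicates have no order, and no test was made. How often each library was lowest over all genes that rose was not counted, so the pattern cannot be called particular to these genes.

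Gsta1, a glutathione transferase gene of the target list that was too low to test, had 0 reads in all 3 DMSO libraries and 5 to 44 reads in the erastin libraries (2.05, 2.16 and 0.259 CPM). It was singled out after its values were seen, and near-identical copies in its family leave its counting uncertain. Gpx2, of the same list, had 0 reads in all 6 libraries.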
